A study of Homo sapiens with 8 samples.

Results

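The class II transactivator gene CIITA and the 7 genes that encode the DNA-binding factors of the MHC class II enhanceosome are described here: RFX5, RFXANK, RFXAP, CREB1, NFYA, NFYB and NFYC. The 8 genes were listed by name for their role in class II transcription, with earlier results of these data known, and they are 8 of the 20033 protein-coding genes whose promoter was examined. The data are H3K4me3 ChIP-seq peak lists from U2OS, a human osteosarcoma cell line. There were 3 WT libraries and 3 ZBTB48 KO libraries, each from a separate clone of its genotype. By the sample annotation, all 6 cultures received 250 U/ml IFNγ for 24 h, the controls included, so that no uninduced state was compared. A figure legend of the study gives a longer IFNγ treatment for a panel that includes H3K4me3 tracks. Inputs were sequenced for 2 of the WT clones and are not used here. ZBTB48 is a telomere-binding zinc finger protein that also occupies some promoters, and the comparison asks whether its loss alters the H3K4me3 mark at CIITA.

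H3K4me3 is a histone modification found at the start of genes that are transcribed or ready to be. MHC class II genes carry a shared promoter module, and it is occupied by the trimeric RFX complex (RFX5, RFXANK and RFXAP), by CREB1 on the X2 box and by the trimeric NF-Y complex (NFYA, NFYB and NFYC) on a CCAAT box. These factors are present in most cell types. CIITA does not bind DNA itself but docks on them and recruits coactivators, and its presence decides whether class II genes are transcribed. Antigen-presenting cells express CIITA constitutively, while most other cells need IFNγ. Human CIITA has alternative promoters named pI, pIII and pIV, classically linked to dendritic cells, to B cells and to IFNγ induction, respectively.

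Each promoter was measured by its covered length, the number of bases under H3K4me3 peaks within 3 kb on either side of the 5′ end of its MANE Select transcript. A promoter was called marked when a peak lay within 1 kb of that 5′ end. The lists were of unequal kind. The lists of WT replicates 1 and 2 had median peak widths of 2297 bp and 2353 bp and median fold enrichments of 13.4 and 14. WT replicate 3 had a median width of 1487 bp and a median fold of 4.186, near the 3 KO lists, whose median widths were 1275 to 1388 bp and median folds 4.321 to 4.645. The lists held 21712 to 26370 peaks, and read depth is not stated in them. Over 14422 promoters covered in any library, the WT mean exceeded the KO mean by a median of 965 bp, whereas WT replicate 3 exceeded the KO mean by a median of 163 bp over 14281 promoters. The main results are therefore given both for all 6 libraries and for WT replicate 3 against the 3 KO libraries. The cause of this inequality was not tested. With 3 libraries against 3, the two-sided exact permutation test cannot give a p below 0.1, so that no single comparison could reach 0.05. A peak list also cannot tell fewer marked cells from less mark per cell, and a promoter without a peak is one that fell below the peak caller's threshold.

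The knocked-out gene itself kept a peak at its promoter in all 6 libraries. ZBTB48 was covered over 3161, 3330 and 1821 bp in WT replicates 1 to 3 and over 1855, 1555 and 1241 bp in the KO replicates, which does not check the deletion because H3K4me3 at a promoter does not require an intact coding sequence. Of 7 osteosarcoma and mesenchymal marker genes, 5 were marked in all 6 libraries, beside 13036 of all 20033 promoters. COL1A1 and VIM were among the 5, and COL1A2 and ALPL were marked in none. None of 3 leukocyte genes (PTPRC, CD53, SPI1) was marked in any library. Of 5 B cell genes, 4 were marked in none, MS4A1 and CD79A among them, and PAX5 was marked in all 6.

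CIITA spans chr16:10866222-10943021 on the forward strand (GRCh38). The MANE Select 5′ end, at chr16:10877202, belongs to pIII. Counted from it, the 5′ end of pI lies at −10980 bp and that of pIV at 1767 bp, inside the first intron of the pIII transcript.

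The qPCR amplicons that the study used for chromatin at this locus were placed on the same map. The pIV primers are printed because pIV is where a KO library kept a peak, with capitals for bases under the WT replicate 3 peak.
pIV forward: ACTTGCAGATCACTTGCCCA
pIV reverse: CTCCAGTCGGTTCCTCACAG
The peak of WT replicate 3, the shortest of the WT peaks, began at −144 bp from the pIII 5′ end, at the first base of the pIII amplicon. This amplicon, chr16:10877058-10877179, and the pIV amplicon, chr16:10878681-10878785, lay wholly under a peak in all 3 WT libraries and under none in the KO libraries. The pI amplicon (chr16:10866073-10866207) and the amplicon at −6101 to −5968 bp from pIII (chr16:10871101-10871234) lay under no peak in any of the 6 libraries.

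CIITA was the member whose mark differed most between the genotypes. In the 3 WT libraries 1 peak ran from just upstream of pIII through pIV, and in KO replicates 1 and 3 no peak was listed at either promoter. Covered length within 3 kb of the pIII 5′ end was 3471, 3318 and 2837 bp in WT replicates 1 to 3. It was 0, 1275 and 0 bp in KO replicates 1 to 3. The groups did not overlap, and WT replicate 3 alone exceeded the highest KO library by 1562 bp. The means were 3209 ± 330.8 bp in WT and 425 ± 736.1 bp in KO (SD, n = 3 each), a difference of 2784 bp with an exact permutation p of 0.1, which is the smallest this design allows. Adjusted over all 14422 covered promoters (Benjamini-Hochberg), this exact p was 0.196. That non-overlap is common in these lists: every WT library exceeded every KO library at 50.8% of covered promoters, or 7330, a count that was 13027 without WT replicate 3 and 11485 without KO replicate 1. Its size was less common, since the WT minus KO difference of CIITA ranked 33 of 14422, and its WT replicate 3 minus KO difference of 2412 bp ranked 13 of 14281. When only peaks with a fold enrichment of at least 4 were kept, the WT replicate 3 peak and the KO replicate 2 peak dropped out, and the difference was 2263 bp with an exact permutation p of 0.4.

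**Figure D1:**
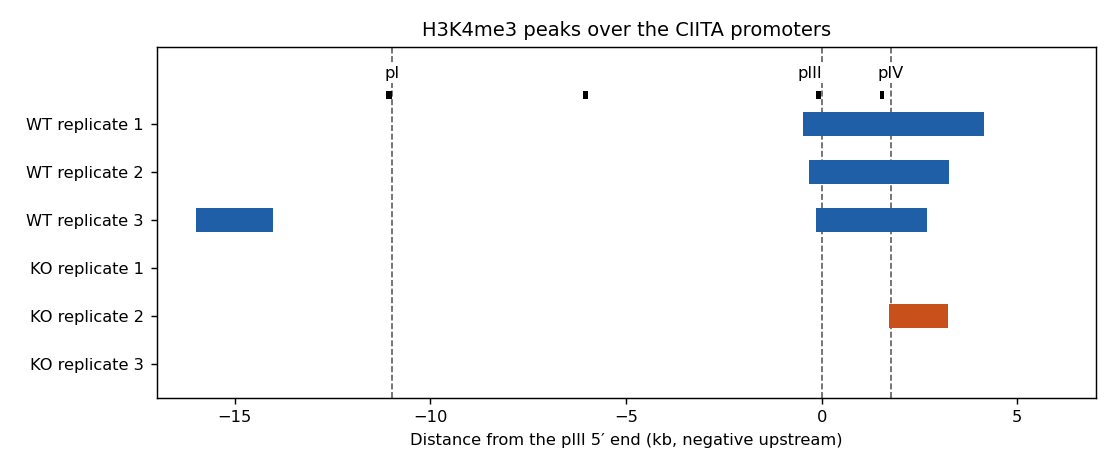
Peaks of the 6 libraries along the CIITA promoters, drawn as bars against distance in kb from the pIII 5′ end (WT blue, KO orange), with dashed lines at the 5′ ends of pI, pIII and pIV and black marks at the 4 qPCR amplicons. The 3 WT peaks run from between −470 and −144 bp of pIII across pIV, and the only KO peak near them, in replicate 2, begins at −41 bp from pIV.

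The call of marked or not separated the groups completely at pIII. CIITA was marked in 3 of 3 WT and 0 of 3 KO libraries, a pattern seen at 0.159% of the promoters marked in every WT library, which is 21 of 13206. Of these 21 promoters, 3 belonged to class II genes, namely HLA-DMA, HLA-DOA and HLA-DRB1. In a wider window, which opens 3 kb before pI and closes 17 kb after it, covered length was 4630, 3574 and 2837 bp in WT and 0, 1507 and 0 bp in KO, with means of 3680 ± 901.2 and 502.3 ± 870.1 bp (SD, n = 3 each) and an exact permutation p of 0.1.

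The individual promoters of CIITA differed in what the KO libraries retained. Within 500 bp of the pIII 5′ end, WT replicates 1 to 3 had 971, 818 and 645 bp under peaks, and all 3 KO libraries had 0 bp. Within 500 bp of the pIV 5′ end, each WT library was covered over the whole 1001 bp, KO replicate 2 over 542 bp, and KO replicates 1 and 3 over 0 bp. At pI no library had a peak within that distance.

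The KO replicate 2 peak, chr16:10878928-10880434, was weak by q value but not by fold when set beside WT replicate 3. Its −log10 q of 1.926 stood at percentile 3.91 of its own list, while those of the WT peaks were 48.85, 29.91 and 21.45, at percentiles 46.2, 38.6 and 44.7 of theirs. It began at −41 bp from the pIV 5′ end and covered that end, and it lay within the first intron of the pIII transcript. Of this peak, 967 bp, or 64.2%, lay in the segment shared by all 3 WT peaks, chr16:10877058-10879894. The WT peaks were below the middle of their own lists by fold enrichment, at 10.35 (percentile 43.2), 8.434 (percentile 37.9) and 2.757 (percentile 6.61). That of the KO replicate 2 peak was 2.844, at percentile 5.67 of its list and slightly above the fold of WT replicate 3. The peak of WT replicate 3 was low and broad, with a width of 2837 bp at percentile 93.8.

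Other peaks in and around CIITA did not follow this pattern. At the 3′ end of the gene a peak was listed in all 6 libraries within 1 kb of the most 3′ annotated 5′ end of a CIITA transcript, 63517 bp downstream of pIII, near where the genes DEXI and CLEC16A begin. If every annotated transcript were considered, CIITA would therefore count as marked in all 3 KO libraries as well. WT replicate 3 alone had a further peak of 1975 bp, chr16:10861213-10863187, ending 3035 bp upstream of pI, with a −log10 q of 2.451. Among the protein-coding promoters within 250 kb, NUBP1, DEXI and CLEC16A were marked in all 6 libraries, and TEKT5 and TVP23A were covered in none. NUBP1 was covered over 1991, 1950 and 1573 bp in WT and over 1583, 1652 and 1515 bp in the KO libraries. WT replicate 3 did not exceed every KO library at any of these 5 promoters.

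All 7 enhanceosome factor genes were marked in all 6 libraries, beside 13036 of all 20033 promoters. Their KO means were 61.1% to 79.2% of their WT means, with a median of 65%, and the same ratio over the 13036 promoters marked in all 6 libraries had a median of 65.1% (interquartile range 59.3% to 70.6%). Against WT replicate 3 alone, the KO means of the factors were 77.4% to 105.9%, with a median of 90.4%, beside 91.4% over all such promoters. For CIITA these values were 13.2% and 15%. Every WT library exceeded every KO library at 6 of 7 factors, beside 50.8% of all covered promoters, and WT replicate 3 exceeded every KO library at 6 of 7, beside 54.4% of promoters.

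**Figure D2:**
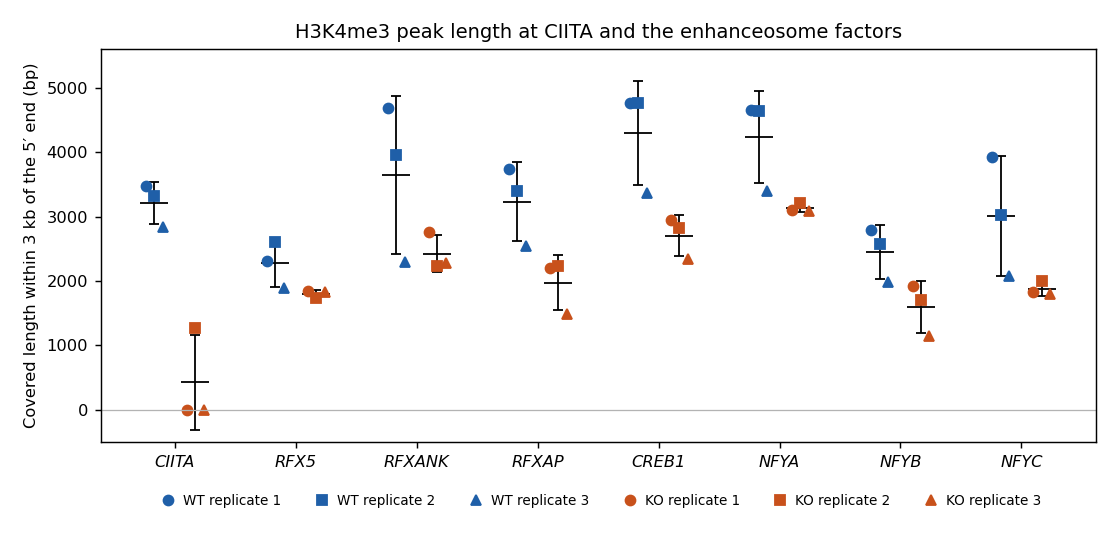
Covered length in bp within 3 kb of the 5′ end for the 8 genes, with 1 point per library (WT blue, KO orange, symbols by replicate number), and horizontal bars with whiskers for the mean ± SD of 3 libraries. The KO points of CIITA lie at 0, 1275 and 0 bp, whereas no factor falls below 1153 bp in any library.

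The RFX complex holds the X box of class II promoters. RFX5 encodes its DNA-binding subunit, and its promoter (5′ end chr1:151347252, reverse strand) was covered over 2310, 2609 and 1896 bp in WT and 1842, 1731 and 1825 bp in KO. Every WT library exceeded every KO library, as at 50.8% of all covered promoters, although WT replicate 3 exceeded the highest KO library by 54 bp only. Means were 2272 ± 358 bp and 1799 ± 59.79 bp (SD, n = 3 each, exact permutation p = 0.1).

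RFXANK, the ankyrin-repeat subunit that contacts CIITA, was covered over 4692, 3960 and 2290 bp in WT and 2758, 2236 and 2283 bp in KO (5′ end chr19:19192258). It was the single member whose groups overlapped, because WT replicate 3 lay below KO replicate 1. The exact permutation p was 0.2, and WT replicate 3 minus the KO mean was −135.7 bp. RFXAP, the remaining subunit, was covered over 3740, 3398 and 2549 bp in WT and 2205, 2235 and 1481 bp in KO (5′ end chr13:36819222). Its groups did not overlap (exact permutation p = 0.1, n = 3 each), with WT higher as at 50.8% of all covered promoters, and KO replicate 3 was the shortest.

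CREB1 encodes a cAMP-responsive activator with many targets outside the class II system. Its promoter (5′ end chr2:207529962) was covered over 4767, 4759 and 3359 bp in WT and 2943, 2818 and 2347 bp in KO. CREB1 had the largest difference of the 7 factors, 1592 bp (exact permutation p = 0.1, n = 3 each), and WT replicate 3 exceeded the KO mean by 656.3 bp. Within 1 kb of the 5′ end, however, the peaks of RFXANK, CREB1 and NFYA covered the whole window in all 6 libraries. The WT minus KO difference there was bound to be 0 bp for each, so that the differences at these 3 genes lay farther out. The CREB1 difference within 3 kb ranked 1424 of 14422 promoters, and the one with WT replicate 3 ranked 1018 of 14281.

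The NF-Y subunits bind CCAAT boxes at very many promoters. NFYA, the subunit that reads the CCAAT sequence, was covered over 4661, 4639 and 3404 bp in WT and 3103, 3212 and 3085 bp in KO (5′ end chr6:41072974). NFYB (5′ end chr12:104138210, reverse strand) was covered over 2795, 2580 and 1990 bp in WT and 1924, 1711 and 1153 bp in KO, and NFYC (5′ end chr1:40691704) over 3930, 3022 and 2075 bp in WT and 1827, 2005 and 1792 bp in KO. NFYB and NFYC encode the histone-fold subunits that pair before NFYA joins. None of the 3 overlapped between groups (exact permutation p = 0.1 for each, n = 3 each). Every WT library exceeded every KO library at these 3 genes, as at 50.8% of all covered promoters. The leads of WT replicate 3 over the highest KO library were 192 bp for NFYA, 66 bp for NFYB and 70 bp for NFYC.

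The difference of CIITA was also set against that of each factor within the same library. CIITA minus RFX5 was 1161, 709 and 941 bp in the WT libraries and −1842, −456 and −1825 bp in the KO libraries. CIITA was thus covered over more bases than RFX5 in every WT library and over fewer in every KO library. The same sign pattern held for NFYB. Over the 7 factors, the WT minus KO change of this quantity was 1191 bp (CREB1) to 2311 bp (RFX5), with an unadjusted exact permutation p of 0.1 for 6 factors and 0.2 for RFXANK. With WT replicate 3 in place of the WT mean it was 1756 bp (CREB1) to 2548 bp (RFXANK). The 7 comparisons all use the same CIITA values, so they are not separate results. An exact permutation p of 0.1 is the smallest this design allows.

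**Figure D3:**
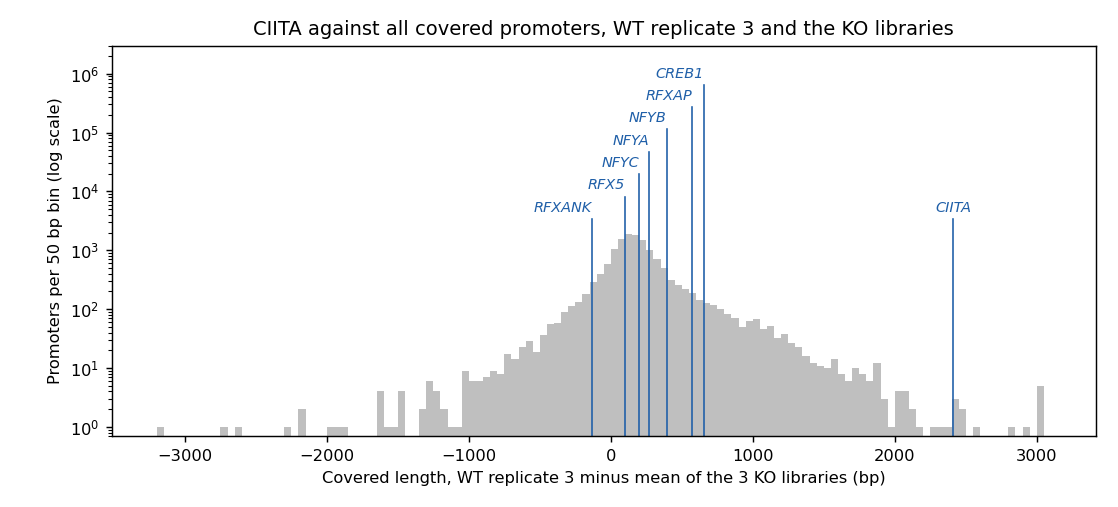
Histogram (log scale) of covered length in WT replicate 3 minus the mean of the 3 KO libraries, in bp, over the 14281 promoters covered in any of these 4 libraries, with a line for each of the 8 genes. The factors lie between −135.7 and 656.3 bp, and CIITA lies at 2412 bp.

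Ranks within each library allow for the general width of its peaks, but they need not remove the inequality between the lists. For CIITA, WT replicate 3 ranked well above WT replicates 1 and 2. The percentile of covered length among all 20033 promoters of the same library was 69.6, 68 and 91.7 for CIITA in WT replicates 1 to 3, and 15, 44 and 15.7 in the KO replicates. A promoter without any covered base stood at percentile 15 in KO replicate 1 and 15.7 in KO replicate 3, because uncovered promoters share their ranks. The difference of 51.5 points had an exact permutation p of 0.1. Every WT percentile exceeded every KO percentile at 6.29% of covered promoters and the reverse held at 11.9%. Among the 8 genes, CIITA alone was separated in the first direction and none in the second. This depended on the settings. With only peaks of a fold of at least 4, the difference was 30.7 points for CIITA, 47.1 for CREB1 and 46.3 for NFYA, with an exact permutation p of 0.1 for each. At these 3 genes only WT replicates 1 and 2 then kept a peak, so the other libraries stood at the shared rank of uncovered promoters. Covered length did not separate the genotypes there (exact permutation p = 0.4 for each gene). With a window of 1 kb, CIITA differed by 22.3 points and RFXANK, CREB1 and NFYA by −11.3 points each, WT minus KO, again with an exact permutation p of 0.1. All 6 libraries covered the whole of that window at RFXANK, CREB1 and NFYA, so these genes stood at the shared rank of fully covered promoters. Their −11.3 points therefore do not show a difference at these genes.

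The percentiles of the factors overlapped between the genotypes. NFYA stood at 91.7, 92.8 and 96.7 in WT and at 94.9, 97.6 and 97.9 in KO, and CREB1 at 92.9, 94 and 96.4 in WT and at 93.4, 94.9 and 90.4 in KO. Both were thus among the most widely marked promoters of every library. Over all 6 libraries, RFX5 had the largest mean difference among the factors and it was higher in KO, with 52.2 ± 9.09 in WT and 66.7 ± 6.41 in KO (SD, n = 3 each, exact permutation p = 0.2). Its WT replicate 3 value of 62.3 lay within the KO values of 61.6 to 73.9. The other factors differed by −3.82 (RFXANK), 4.16 (RFXAP), 1.51 (CREB1), −3.09 (NFYA), −0.734 (NFYB) and 0.156 (NFYC) points, WT minus KO, with exact permutation p of 0.2 to 1. With WT replicate 3 in place of the WT mean, RFX5 differed by −4.41 points and RFXAP by 13.04, the largest among the factors. RFXANK then differed by −9.50, NFYB by 9.48, CREB1 by 3.44, NFYC by 0.495, NFYA by −0.1165 and CIITA by 66.8 points. Leaving out 1 library at a time moved RFXANK between −7.60 (without WT replicate 1) and −0.976 (without WT replicate 3) and CREB1 between 0.274 (without KO replicate 3) and 2.52 (without KO replicate 2).

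**Figure D4:**
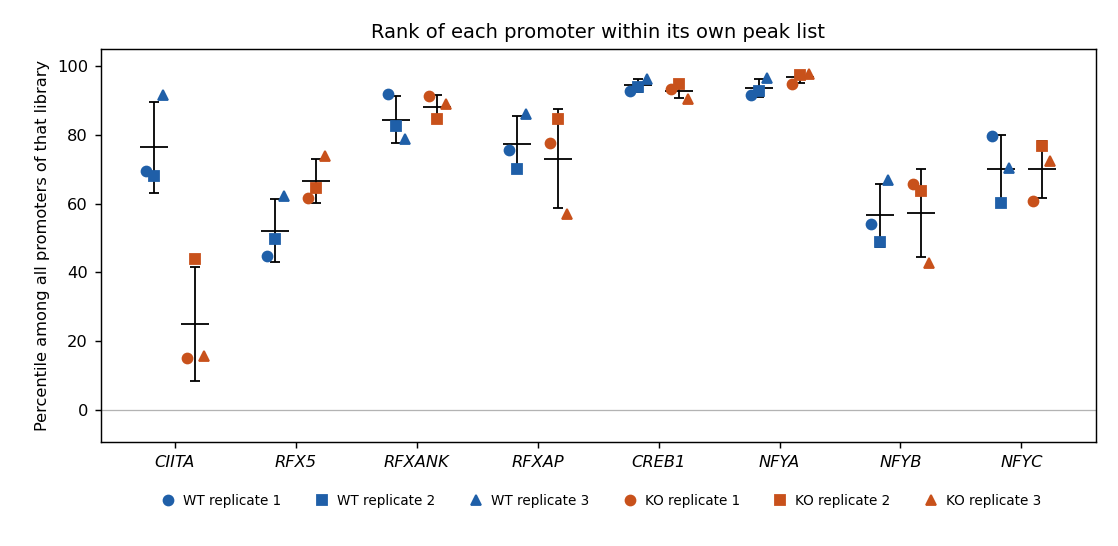
Percentile of covered length among all promoters of the same library, from 0 to 100, for the 8 genes, with 1 point per library and bars for mean ± SD (n = 3). CIITA lies at 68 to 91.7 in WT and at 15 to 44 in KO, and the points of both genotypes overlap at each factor.

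The edges of the factor peaks showed where the lengths differed. Downstream of the 5′ end, RFX5 peaks reached 1648, 1605 and 1373 bp in WT and 1269, 1214 and 1289 bp in KO. Upstream, WT replicate 3 reached 522 bp and lay within the KO values of 516 to 572 bp. RFXAP peaks reached 1703, 1734 and 979 bp downstream in KO replicates 1 to 3, so that KO replicate 3 ended earliest, while the upstream edge lay at 501, 500 and 501 bp in these libraries and at 519 bp in WT replicate 3. The NFYB peak of KO replicate 3 began 47 bp downstream of the 5′ end and was the only factor peak that did not cover its 5′ end. That peak had the highest fold of the NFYB peaks in libraries of the narrow kind, 7.136, at percentile 92.8 of its list.

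**Figure D5:**
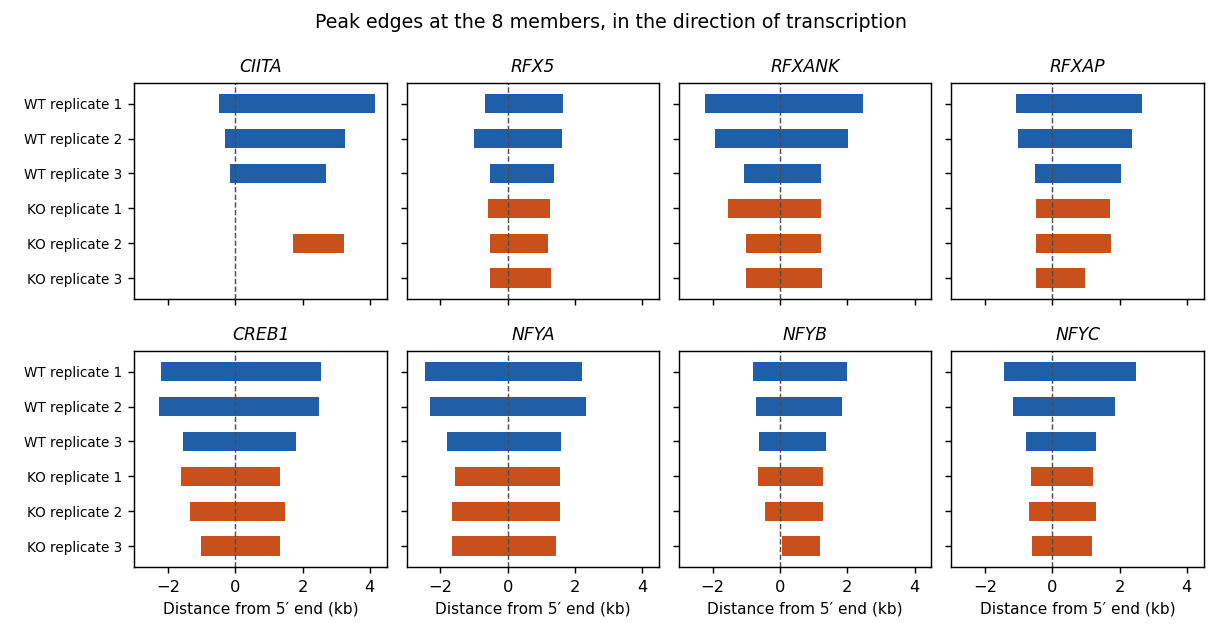
Extent of the peaks at the 8 genes in each library, as distance in kb from the 5′ end in the direction of transcription (WT blue, KO orange, dashed line at the 5′ end). Each factor has 1 peak in every library that differs in reach, and CIITA has none over its 5′ end in the KO libraries.

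Several of these peaks span the 5′ ends of more than 1 gene, and a peak list cannot assign them. RFX5 begins 314 bp from RFX5-AS1, RFXANK begins 106 bp from BORCS8 and 120 bp from the readthrough gene BORCS8-MEF2B, CREB1 begins 167 bp from the gene listed as ENSG00000223725, NFYA begins 618 bp from OARD1 and NFYC begins 370 bp from NFYC-AS1. In all 6 libraries the 5′ end of each of these genes lay under the member's peak.

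Promoter sequence was read from RefSeq (GRCh38.p14) for the 6 factor genes with an entry at the MANE Select 5′ end; CIITA and NFYB had none. In the 250 bases upstream, both strands were searched for CCAAT (the NF-Y box), TGACGTCA (the CREB box), CACGTG (the E-box that USF1 binds), TTCNNNGAA, the core of the interferon-stimulated response element and TTAGGG (the telomere repeat that ZBTB48 binds). CCAAT occurred in RFX5 and NFYC, that is in 2 of 6, and in 32% of the 35116 promoters in the table. The NFYA promoter held TTCNNNGAA, as did 6.57% of all promoters, and the other 4 motifs were in none of the 6. These shares over all promoters were 1.65% for TGACGTCA, 6.34% for CACGTG, 3.02% for the interferon-stimulated response element core and 7.94% for TTAGGG. The promoters with CCAAT are shown because they belong to factors of the complex itself, with the box in capitals, and both lay under a peak in all 6 libraries.
RFX5, chr1:151347253-151347502, reverse strand: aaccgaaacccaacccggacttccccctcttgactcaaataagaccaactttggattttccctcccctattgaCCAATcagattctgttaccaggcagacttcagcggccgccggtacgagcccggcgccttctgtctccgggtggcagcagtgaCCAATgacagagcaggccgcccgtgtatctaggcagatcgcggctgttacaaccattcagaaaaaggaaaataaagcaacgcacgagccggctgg
NFYC, chr1:40691454-40691703, forward strand: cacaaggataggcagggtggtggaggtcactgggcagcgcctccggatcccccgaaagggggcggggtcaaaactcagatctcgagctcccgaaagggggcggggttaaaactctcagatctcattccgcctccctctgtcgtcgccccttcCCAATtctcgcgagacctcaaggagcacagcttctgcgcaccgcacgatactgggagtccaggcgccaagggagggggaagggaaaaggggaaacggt
Counted from the 5′ end, the boxes of RFX5 began at positions −177 and −95, and that of NFYC at −98.

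Genes that act before CIITA were marked in both genotypes. Of 8 genes of the route from IFNγ to CIITA (the receptor genes IFNGR1 and IFNGR2, the kinases JAK1 and JAK2, IRF1, IRF2, USF1 and ZBTB48), 8 were marked in all 6 libraries, beside 13036 of all 20033 promoters. Every WT library exceeded every KO library at 5 of them, beside 50.8% of all covered promoters. None was separated by percentile with WT higher, beside 6.29%, and 2 were separated with KO higher, beside 11.9%. IRF1, a transcription factor that IFNγ induces, was singled out after the values were seen. It was covered over 4223, 4491 and 3046 bp in WT and over 3601, 3002 and 2975 bp in KO. The KO values lay on both sides of WT replicate 3.

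The 7 coactivator genes that CIITA engages (CREBBP, EP300, KAT2B, CARM1, NCOA1, NCOA3 and SMARCA4) were marked in all 6 libraries, beside 13036 of all 20033 promoters. Their median KO mean was 64.6% of the WT mean and 89.1% of WT replicate 3. The 9 relatives of the factors (RFX1 to RFX4, RFX6 to RFX8, CREM and ATF1) were marked in all 6 as well, with 69.2% and 90.4%. NLRC5, the transactivator of MHC class I genes, was covered over 6001, 6001 and 2558 bp in WT and over 2573, 2486 and 2456 bp in KO. Its KO mean was 51.6% of the WT mean and 97.9% of WT replicate 3, and the groups overlapped. The control genes ACTB and GAPDH were marked in all 6 libraries, with a median KO mean of 74.4% of the WT mean and 97.5% of WT replicate 3.

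More of the genes that CIITA acts upon were marked in each WT library than in any KO library. Of 14 class II and accessory genes, 10, 9 and 10 were marked in WT replicates 1 to 3 and 3, 5 and 1 in KO replicates 1 to 3. HLA-DMB alone was marked in all 6, and no library marked HLA-DQA2, HLA-DQB2 or HLA-DRB5. Of all 20033 promoters, 13704 to 14006 had coverage within 3 kb in a given library, and 13036 were marked in all 6. Every WT library exceeded every KO library at 8 of 14, beside 50.8% of promoters. WT replicate 3 exceeded every KO library at 10 of 14, beside 54.4%, and every WT percentile exceeded every KO percentile at 5 of 14, beside 6.29%. Reads at several of these genes map to near-identical paralogs, and multimapping reads had been removed.

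The genes whose covered length across the 6 libraries was most like that of CIITA were found by the summed absolute difference in bp. HLA-DRA, which encodes the alpha chain of the DR dimer, was nearest with 3442, 2930 and 2057 bp in WT and 0, 979 and 0 bp in KO, a summed difference of 1493 bp. CD74, which encodes the class II invariant chain, followed with 3342, 3561 and 2761 bp in WT and 0, 2682 and 0 bp in KO, a summed difference of 1855 bp. These were the only 2 promoters within 2000 bp of CIITA by this measure, and both had a peak in KO replicate 2 but in no other KO library. The measure includes KO replicate 2, so this likeness to CIITA is built into how the 2 genes were found. The next were TRAPPC3 (3016 bp), CCL20 (3389 bp) and GRWD1 (3425 bp), each of which was covered in all 3 KO libraries. CCL20, however, was covered over 57 bp only in KO replicate 3. By the call within 1 kb, CCL20 was among the 21 promoters marked in every WT library and in no KO library. At 27 promoters all 3 WT libraries had coverage while KO replicates 1 and 3 had none, and KO replicate 2 had coverage at 4 of these.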

How the data were processed

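H3K4me3 was measured by ChIP-seq in 3 WT and 3 ZBTB48 KO clones. The authors trimmed reads (Trimmomatic), aligned them to GRCh38 with Bowtie2 2.3.5.1, discarded reads that were duplicates or mapped to several places, and ran MACS2 2.1.1.2 in broad mode on each library. Per the labels and file layout, the deposited lists give a fold ratio over local background, −log10 p and q, and an integer score that was not used. Whether an input served as control for each list is not given in the sources used here. Read counts are not in these lists, and the study gives read numbers only as a range over its ChIP-seq samples, so the depth of each library is unknown and no count test was possible.

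Covered length, calls within 1 kb and percentiles were computed with Python 3.11.15 and numpy 2.4.6 on 20033 GENCODE v44 promoters (MANE Select, else Ensembl canonical). None of the 139749 peaks ran past its GRCh38 chromosome. qPCR primers were placed by exact match. Libraries were compared by two-sided exact permutation over 20 assignments, adjusted by Benjamini-Hochberg over all covered promoters, after a test on simulated data. Alternatives were peak threshold, peak number, joining, window and libraries. Members, gene lists and tests were chosen with earlier results of these data known. Named genes were the members, genes sharing their peaks, neighbours of CIITA, the 5 nearest to its pattern, and listed genes marked in WT alone or nowhere. NLRC5, ACTB and GAPDH were lists of their own, and IRF1, HLA-DMB, PAX5, COL1A1 and VIM were named outside this rule after their values were seen. Correlations of deviations between same-numbered WT and KO libraries were −0.0095, 0.0171 and 0.0932, and those between other WT and KO libraries were −0.118 to 0.0787. These values cannot decide whether same-numbered clones were handled together. Some genes and sequences are not reported here.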

Additional observations from a re-analysis of the deposited data

How the results depend on the processing

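The covered length of CIITA was larger in WT under all 14 alternatives for its promoter window and under those for its 5′ end, and none could bring a test past 0.05. At the factors, RFXANK alone changed direction in covered length, with a value of −135.7 bp for WT replicate 3 minus the KO mean, and its WT minus KO difference was 699.3 bp without WT replicate 1 and 1900 bp without WT replicate 3. With a window of 1 kb the difference was 0 bp for RFXANK, CREB1 and NFYA, because all 6 libraries covered the whole window there. When peaks below a fold of 4 were dropped, CIITA minus factor reversed for CREB1 (−912.3 bp) and NFYA (−837 bp). The percentile difference reversed for NFYA (46.3) and NFYC (−8.2), rose to 47.1 for CREB1 and fell to 30.7 for CIITA. At CIITA, CREB1 and NFYA only WT replicates 1 and 2 then kept a peak, and the other libraries stood at the shared rank of uncovered promoters. The percentile difference also reversed for CREB1 with windows of 1 kb (−11.3, the shared rank of fully covered promoters) and 5 kb (−1.58). It did so for NFYC with 5 kb (−0.399) and for NFYB with WT replicate 3 alone against KO (9.48). Leaving out single libraries gave −7.60 to −0.976 for RFXANK, 0.274 to 2.52 for CREB1, −3.92 to 9.89 for RFXAP, −8.04 to 3.43 for NFYB and −4.64 to 5.12 for NFYC. The cause was not tested. WT libraries had 1 more marked member than KO libraries, and this difference in means was 2.33 with the fold minimum. With that minimum, 8, 8 and 3 of 8 members remained marked in WT replicates 1 to 3 and 3, 4 and 5 in KO replicates 1 to 3. WT replicate 3 thus exceeded no KO library. The difference in means was 1.33 when a peak had to cover the 5′ end base, since the NFYB peak of KO replicate 3 begins downstream of it. It was 0 when any annotated transcript counted. Promoters with every WT above every KO library numbered 4436 with the fold minimum and 7404 to 13027 when single libraries were left out. Without WT replicate 3 there were 13027, and without KO replicate 1 there were 11485.

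Replicate numbers are shared between the genotypes but mark separate clones. Taking the same-numbered libraries as pairs (replicate block), the exact sign-flip p was 0.25 for the CIITA window difference of 3178 bp and for the covered length of each of the 8 genes, the smallest p that 3 pairs allow, and the block changed no call. Depth is not in the lists, so that a promoter without a peak cannot be given a limit.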
